A study of Homo sapiens with 2 samples.

Results

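The EMT and mesenchymal transcription factors are 5 pairs of related genes, SNAI1 and SNAI2, ZEB1 and ZEB2, TWIST1 and TWIST2, PRRX1 and PRRX2, and MEOX1 and MEOX2. They were chosen by name, and every probe set that the platform annotation gives to 1 of them alone was read. These were 21 probe sets for the 10 genes, of 54675 probe sets and 19775 genes in all. The cells came from HUES9, an established human embryonic stem cell line, at passage 32. Embryoid bodies, which are suspended clumps of stem cells entering differentiation, were cultured over 10 days. They were then set down on fibronectin-coated dishes in a chemically defined medium, and the monolayer that spread from them was passaged with trypsin. The SB-OG outgrowth had received SB-431542, which blocks the kinases of the TGF-β, activin and nodal type I receptors, at 10 µM as embryoid bodies and at 1 µM as outgrowth. The control-OG outgrowth had received the vehicle, DMSO at 0.01%. At outgrowth passage 5, 3 samples of a condition were mixed and read on 1 Affymetrix array, so each condition has 1 value per probe set, the spread between cultures was not measured, and no difference has a test or a p-value.

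An epithelial-mesenchymal transition, or EMT, is the change in which cells give up the junctions and polarity of an epithelium and take on the form and movement of mesenchyme. SNAI and ZEB proteins are zinc finger repressors that bind E-box DNA and silence epithelial genes such as CDH1, and TWIST proteins are bHLH factors that also bind E-boxes, as pairs with E proteins. TGF-β signalling through SMAD proteins is a well known inducer of SNAI, ZEB and TWIST genes. PRRX1 and PRRX2 are paired-related homeobox factors of limb and face mesenchyme, and MEOX1 and MEOX2 are homeobox factors of the somite, the block of paraxial mesoderm that gives rise to vertebrae, dermis and skeletal muscle.

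The E-box is the letter pattern CANNTG, and SNAI and ZEB proteins prefer its form CACCTG, which reads CAGGTG on the other strand. RefSeq promoter windows of GRCh38.p14, 300 bases long, were matched by symbol for 6 of the 10 genes, with 12 windows in all, of which ZEB1 has 7. The 250 bases before the start are printed below for 4 genes, each on the gene's own strand, to show where such letters lie in ZEB2 and MEOX2, which were higher in SB-OG, in ZEB1, which was not, and in an epithelial gene that SNAI and ZEB proteins can repress. DSP, the desmosomal protein desmoplakin, is at chr6:7541421-7541670 on the plus strand, and ZEB1, at the first of its listed starts, at chr10:31318167-31318416 on the plus strand. ZEB2 is at chr2:144520120-144520369 and MEOX2 at chr7:15686684-15686933, both on the minus strand. Capitals mark CACCTG or CAGGTG in DSP and ZEB1, CANNTG in ZEB2, and CANNTG and a match to the MEF2 consensus in MEOX2.
DSP: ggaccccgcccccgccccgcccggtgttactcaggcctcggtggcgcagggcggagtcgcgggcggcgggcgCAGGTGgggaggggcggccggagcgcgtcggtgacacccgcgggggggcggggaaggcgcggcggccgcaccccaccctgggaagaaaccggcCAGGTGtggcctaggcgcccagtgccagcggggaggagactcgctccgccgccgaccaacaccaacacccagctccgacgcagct
ZEB1: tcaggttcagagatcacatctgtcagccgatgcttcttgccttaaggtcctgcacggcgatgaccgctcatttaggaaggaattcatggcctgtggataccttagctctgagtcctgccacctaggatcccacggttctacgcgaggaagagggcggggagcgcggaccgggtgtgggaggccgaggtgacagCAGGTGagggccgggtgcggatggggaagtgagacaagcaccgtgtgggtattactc
ZEB2: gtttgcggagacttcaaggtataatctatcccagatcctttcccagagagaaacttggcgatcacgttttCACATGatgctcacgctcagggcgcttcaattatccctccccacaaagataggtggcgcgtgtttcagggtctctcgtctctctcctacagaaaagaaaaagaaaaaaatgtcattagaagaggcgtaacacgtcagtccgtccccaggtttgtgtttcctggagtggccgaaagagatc
MEOX2: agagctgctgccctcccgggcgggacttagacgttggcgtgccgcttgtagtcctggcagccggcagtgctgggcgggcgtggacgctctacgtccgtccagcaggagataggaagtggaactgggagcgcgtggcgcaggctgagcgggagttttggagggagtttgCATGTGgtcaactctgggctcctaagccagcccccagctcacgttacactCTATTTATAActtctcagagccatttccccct

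With positions counted from 0 at the gene's start, DSP held CAGGTG at 2 places, which began at -178 and -85. The printed window of ZEB1 held it at 1 place, at -57. That window also held another CANNTG, the letters CATCTG at -234, which are not in capitals. Over all 12 windows of the 6 genes, CACCTG was found on either strand in 2, both of ZEB1, against 20.6% of all 35116 windows in the table. The general pattern CANNTG was in 6 of the 12, against 68.7% of all windows, and TAATTA, a core that homeobox factors can bind, was in 0 of the 12, against 4.84%. MEF2, the muscle and heart factor family, had a consensus match in 2 of the 12, 1 in MEOX2 and 1 in ZEB1, against 2.99% of all windows. The match in MEOX2 began at -32, where A- and T-rich TATA boxes also lie, and the same letters can be read as either. Among 12 epithelial genes of the repressed list with a window, 9 held CACCTG in at least 1 of their windows, 11 of 16 windows in all. These are letters in short windows, and binding was not measured.

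Values are array intensities on a linear scale. Both arrays had a trimmed mean of 150.02, and median intensities of 22.6 for control-OG and 21.8 for SB-OG. The background level was taken from 219 probe sets of families assumed to be unused in these cells, such as olfactory receptors, and came to 31.8 for control-OG and 27.0 for SB-OG. Of all genes, 12582 exceeded background on 1 or both arrays and 10461 on both. For GAPDH the 3′ probe set over the 5′ probe set, which tracks RNA degradation, gave 0.995 and 0.958 on the control-OG and SB-OG arrays. The same ratio for ACTB was 1.65 and 1.55. The outgrowths differed widely in cell type markers. In SB-OG all 8 skeletal muscle markers were at least 2-fold higher, with summed intensities of 322.5 and 38935. Of 8 fibroblast or stromal markers, 6 were at least 2-fold lower and 1 was higher, with sums of 81454 and 36795. Of 6 epithelial markers, 3 were 2-fold lower, CDH1 was higher, and EPCAM and CLDN4 were not above background, with sums of 16527 and 461. Of 5 endothelial markers 3 were 2-fold lower and CDH5 was not above background, with sums of 2046 and 134. PECAM1 passed background on SB-OG only, at 25.5 and 37.9. TEK, 1 of the 3 lower by their brightest probe sets, had another at a log2 difference of -0.65. By their brightest probe sets, DCX and NEFM were above background and higher while PAX6 and SOX1 were not above it, though another SOX1 probe set was, at a log2 difference of 0.40, and the 4 neural markers summed to 126 and 3656. Among neural crest markers TFAP2A was 2-fold higher by its brightest probe set, with another at a log2 difference of 0.16. FOXD3 barely exceeded background with the inhibitor only, at 30.2 against 27.0, and did not with the background at the 99th percentile. SOX10 and TFAP2B were not above background, and the 4 markers had sums of 154 and 370. Of the pluripotency markers with a probe set, SOX2 was above background on SB-OG, and by their brightest probe sets NANOG, LIN28A and DPPA4 were not on either array, with another DPPA4 probe set above it at 0.42. These had sums of 42.4 and 180.4 over 4 markers. In such mixed RNA, fewer cells of a type and less RNA per cell cannot be told apart.

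The 10 genes divided in direction. In SB-OG, ZEB2, MEOX1 and MEOX2 were at least 2-fold higher, against 12.4% of all genes detected on 1 or both arrays. SNAI2, TWIST1 and TWIST2 were at least 2-fold lower, against 13.0% of all genes. The other 4, SNAI1, ZEB1, PRRX1 and PRRX2, were within 2-fold. All 10 exceeded this background on 1 or both arrays (8 with it set at the 99th percentile), 6 of them on both, MEOX1, MEOX2 and PRRX2 on SB-OG only and SNAI1 on control-OG only. Genes detected on the SB-OG array alone could hardly be lower there, and 34.6% of the 1232 of that kind were at least 2-fold higher. The median log2 difference of the 10 genes, SB-OG minus control-OG, was -0.14, and that of all genes above background was -0.02. The members spread from -1.79 to 2.95. For scale, log2 differences from several probe sets of one gene had an SD of 0.47, over 4962 genes.

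**Figure D1:**
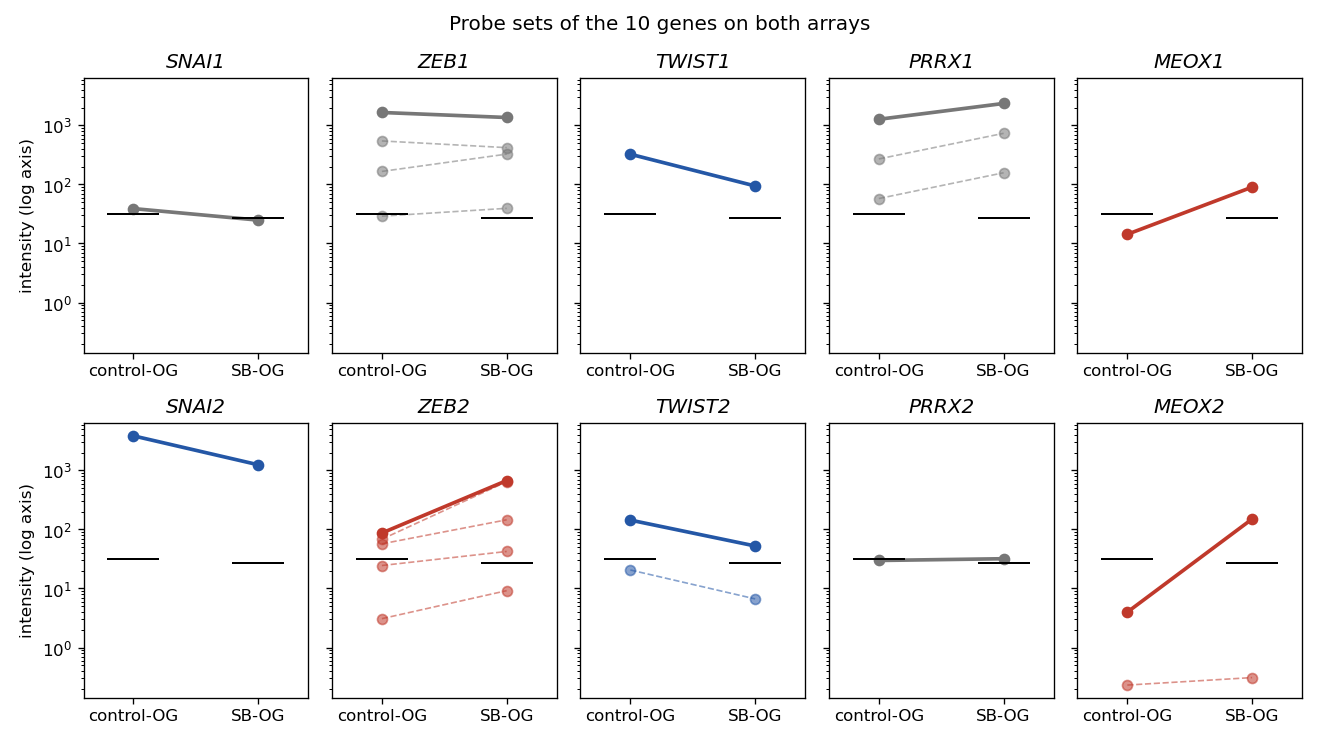
Intensity of every probe set of the 10 genes on the control-OG and SB-OG arrays, on a log axis; the thick line is the brightest probe set of a gene, dashed lines are its other probe sets, and short black bars mark the background level of each array, 31.8 and 27.0. Red marks genes at least 2-fold higher in SB-OG, blue those at least 2-fold lower and grey those within 2-fold; the brightest ZEB2 line climbs from 87.1 to 673.6 and the SNAI2 line descends from 3855 to 1248.

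SNAI2, also known as Slug, is the SNAI gene of neural crest and of many mesenchymal cells. Its single probe set read 3855 on control-OG and 1248 on SB-OG. It was 3.09-fold lower in SB-OG, a log2 difference of -1.63, and stayed far above background on both arrays. Among all genes above background, 6.06% had a lower difference. SNAI1, or Snail, often acts early in an EMT and its protein is short-lived. Its single probe set read 39.0 on control-OG, just above background, and 24.9 on SB-OG, just below it. SNAI1 was therefore at least 1.45-fold lower, a bound within 2-fold, and at such dim signal a larger difference would not have been visible. Of 889 genes above background on control-OG alone, 39.3% were at least 2-fold lower. Of the 2 SNAI genes, a 2-fold difference was measured for SNAI2 alone, and SNAI1 was too close to background for a shared direction to be stated.

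ZEB2, also known as SIP1, is a SMAD-binding repressor with roles in neural crest and in EMT. Its brightest probe set read 87.1 on control-OG and 673.6 on SB-OG, which is 7.74-fold higher and a log2 difference of 2.95. A further probe set read 68.4 and 644, 9.42-fold higher. The remaining one above background on both arrays read 57.1 and 145.8, 2.55-fold higher. Another passed background with the inhibitor only, at 24.5 and 42.4, and the last was under background on both, at 3.08 and 9.18. The 3 ZEB2 probe sets measured on both arrays were thus all brighter on SB-OG, by sizes that differed with an SD of 1.01. Only 2.18% of all genes above background had a higher difference than the brightest ZEB2 probe set.

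ZEB1, which shares its domain plan with ZEB2 and binds the same E-boxes, was not higher in SB-OG by its brightest probe set. Its brightest probe set read 1659 with vehicle and 1364 with the inhibitor, a log2 difference of -0.28. A further probe set read 546 and 421, a difference of -0.38. Another went the other way, at 166.4 and 326.9, a difference of 0.97, and the dimmest was at 29.1 and 39.4. The probe sets of ZEB1 therefore do not give one direction, and none reached 2-fold. Within this pair of arrays the log2 difference of ZEB2 exceeded that of ZEB1 by 3.23, a contrast that multiplying an array by 1 factor does not alter. The highest ZEB1 probe set, at 0.97, and the lowest ZEB2 probe set measured on both arrays, at 1.35, stood in the same order but lay closer together.

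TWIST1, a bHLH factor of head and limb mesenchyme, read 325 on control-OG and 94.3 on SB-OG by its single probe set. It was 3.45-fold lower, a log2 difference of -1.79, and 5.18% of all genes above background were lower still. TWIST2, or Dermo1, a close relative found in dermis and other mesenchyme, read 144.1 and 52.5 by its brighter probe set. It was 2.74-fold lower, a difference of -1.46. The other TWIST2 probe set was under background on both arrays, at 20.6 and 6.67. The TWIST pair went one way, and the differences of its brighter probe sets were 0.33 apart on the log2 scale. That is less than the SD of 0.47 among probe sets for a single gene. TWIST proteins are also known to restrain the myogenic factors with which they share E protein partners, and the skeletal muscle markers were higher on the array where both TWIST genes were lower. The part of those cells in the result was not tested.

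PRRX1, a homeobox gene used as a marker of limb bud and other mesenchyme, was brighter on SB-OG by all 3 of its probe sets. The brightest read 1272 on control-OG and 2359 on SB-OG, 1.86-fold higher and so within 2-fold. The second read 270.8 and 735.2, 2.72-fold higher, and the dimmest read 57.7 and 157.9, 2.73-fold higher. PRRX1 therefore sits at the 2-fold line, with log2 differences from 0.89 to 1.45, and whether it counts depends on the probe set taken. PRRX2, its relative, read 29.8 on control-OG and 31.9 on SB-OG. That is under background on the first array and barely over it on the second, so no fold is given for PRRX2.

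MEOX1 and MEOX2, which are needed together for somite and skeletal muscle development in mice, were both under background on control-OG and above it on SB-OG. MEOX1 read 14.3 and 90.1 by its single probe set, at least 2.83-fold higher. MEOX2 read 3.97 and 150.3 by its brighter probe set, at least 4.72-fold higher, and its other probe set was near 0 on both arrays, at 0.231 and 0.309. Folds for both genes are lower bounds because the control-OG value was raised to the background level of 31.8. The names of both bright probe sets carry the suffix _s, which the array maker gives to probe sets that may read more than 1 transcript. With only probe sets free of such suffixes, MEOX1 had none and MEOX2 was under background on both arrays, so neither gene could be called.

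**Figure D2:**
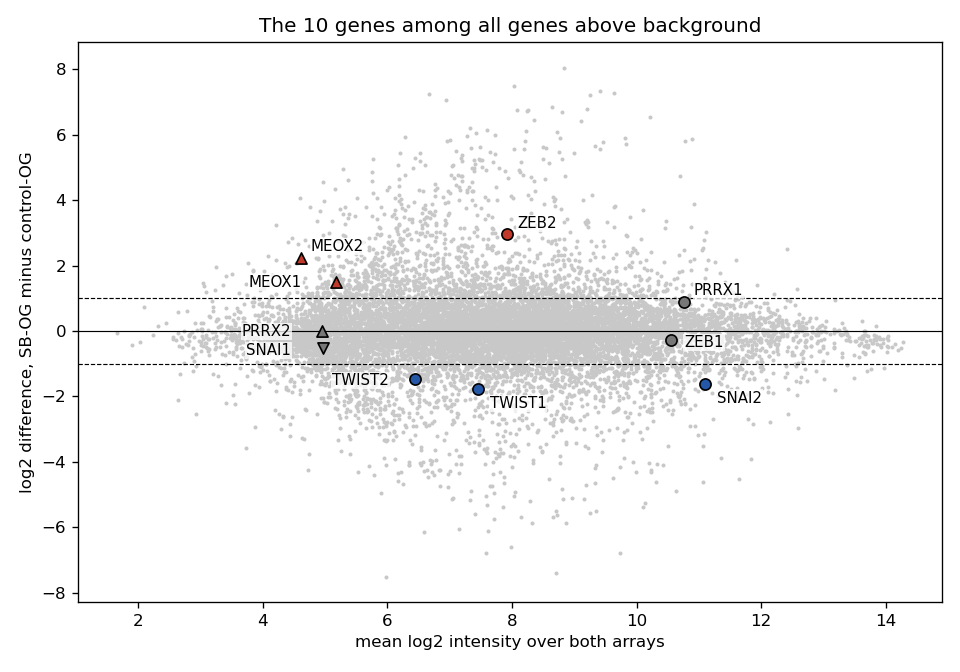
Log2 difference, SB-OG minus control-OG, against the mean log2 intensity over both arrays for 12582 genes above background on at least 1 array (grey points), with the 10 genes named. Circles are genes above background on both arrays, triangles are genes above it on 1 array, whose differences are bounds, and dashed lines mark 2-fold; ZEB2, MEOX1 and MEOX2 lie above the band, and SNAI2, TWIST1 and TWIST2 below it.

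Partners of these proteins were read next, beginning with bHLH genes. For this and every later list, the shares of all genes were 12.4% at least 2-fold higher and 13.0% lower. Of all 19775 genes, 12582 were above background, the share to set beside each count of detected genes. TWIST proteins pair with the E proteins TCF3, TCF4 and TCF12, compete with HAND proteins, and are cut off from E proteins by ID proteins. Of these 9 genes, SB-OG had 4 at least 2-fold higher and 1 lower, with a median of 0.56. With the mean of all probe sets of a gene, 2 of them were higher and 1 lower. TCF12 read 535 on control-OG and 2416 on SB-OG, 4.52-fold higher. TCF3 read 365 and 1044, 2.86-fold higher, but another of its probe sets was at -1.07 on the log2 scale. TCF4, at 673 and 1535, was 2.28-fold higher. The E protein genes were thus each higher by their brightest probe set, on the array where both TWIST genes were lower. Any relation between these differences was not tested. ID4 read 61.3 and 368.8, 6.02-fold higher. HAND1, a factor of lateral mesoderm, read 240.5 and 14.2, at least 8.91-fold lower.

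The corepressors that SNAI and ZEB proteins recruit, among them CtBP, histone deacetylases, LSD1 with CoREST, and the Polycomb complex, were all above background. Of these 17 genes, SB-OG had 4 at least 2-fold higher and 0 lower, against 12.4% and 13.0% of all genes above background. Their median was 0.36. With the mean of all probe sets of a gene, 2 of the 17 were higher and 0 lower. LIMD1, a LIM protein that binds SNAI proteins, was 2.92-fold higher at 169 and 495, with other probe sets from 0.29 to 1.74. EZH2, the Polycomb methyltransferase, was 2.65-fold higher at 107.3 and 284.1. RCOR1, the CoREST gene, was 2.11-fold higher at 348.1 and 735.5, and HDAC2 reached 2.004-fold, at 1114 and 2233. Another HDAC2 probe set was at 0.94, short of 2-fold. HDAC1 and LOXL2 had negative differences, -0.69 and -0.86, that did not reach 2-fold by their brightest probe sets, and another LOXL2 probe set was at -1.25. Enzymes that phosphorylate, ubiquitinate or stabilise SNAI proteins were read as well. Of 13 such genes, BTRC, an F-box gene of Snail turnover, was 2.50-fold higher by its brightest probe set, at 119.8 and 300.02, with its others between -0.21 and -0.003 on the log2 scale. The remaining 12 were within 2-fold by their brightest probe sets, as were 9379 of all 12582 genes above background. Another MDM2 probe set was at -1.25, and the median of the 13 was -0.07.

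Other factors that can promote EMT split as well. Of 11 with their own probe set, 8 were detected: TCF3 and TCF4 were 2-fold higher, as given for the E proteins, and SOX9, a factor of neural crest and cartilage, was 2.13-fold lower at 106 and 49.9, a call lost with the background at the 99th percentile. SNAI3, GSC and KLF8 were not above background on either array. Of the factors and splicing regulators that hold the epithelial state, 4 of 12 were above background. KLF5 read 255 on control-OG and 964 on SB-OG, 3.77-fold higher, and KLF4 read 160 and 362, 2.26-fold higher, and both Krüppel-like factors are also used outside epithelia. GRHL2, OVOL1 and ESRP1 were not above background by their brightest probe sets, and OVOL2 and ELF3 were above it on control-OG only, at 33.5 and 39.7.

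Of 19 epithelial genes known as targets of SNAI and ZEB repression, 9 were not above background on either array by their brightest probe sets. Of all 19775 genes, 12582 were above it on 1 or both arrays. Another probe set of 1 of the 9, ESRP1, was above background at a log2 difference of 0.25. Of the 10 listed genes above background, SB-OG had 1 gene at least 2-fold higher and 3 lower, and the median was -0.79. CDH1, encoding E-cadherin, was at least 2.60-fold higher, going from 26.9 with vehicle to 82.8 with the inhibitor. KRT18, a keratin of simple epithelia, read 8655 and 293.8, 29.5-fold lower. The desmosome genes DSP and PKP2, for desmoplakin and plakophilin, were lower as well, DSP from 496.8 to 52.3, which is 9.501-fold, and PKP2 from 432.3 to 20.8, at least 16.01-fold. The genes of this list did not move as one, since CDH1 and the keratin and desmosome genes had opposite directions. With the background at the 99th percentile CDH1 no longer reached 2-fold, and it has no probe set free of a suffix.

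Genes that mark the mesenchymal side of EMT included 8 of 18 that were 2-fold lower in SB-OG and 2 that were higher, with a median of -0.82. VIM, the intermediate filament vimentin, read 16414 with vehicle and 10378 with the inhibitor, a log2 difference of -0.66, and its other probe set was at 0.05. FN1, fibronectin, read 16500 and 10159, a difference of -0.70, with other probe sets from -4.09 to -0.71. CDH2, encoding N-cadherin, read 3704 and 165.6, 22.4-fold lower. LOX, a collagen cross-linking enzyme, was 22.8-fold lower and MMP2, a matrix protease, 4.97-fold lower, with its other probe set above background at -0.502. S100A4, also known as fibroblast-specific protein, went the other way, at 733 and 4082, 5.57-fold higher. CDH1 was higher and CDH2 lower in SB-OG, while VIM and FN1 were bright on both arrays and within 2-fold by their brightest probe sets. Over the same arrays 6 of 8 fibroblast or stromal markers were 2-fold lower, and their part in these differences and in those of SNAI2, TWIST1 and TWIST2 was not tested.

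TGF-β target genes included 4 of 7 that were 2-fold lower in SB-OG, against 13.0% of all genes, and 0 that were higher, against 12.4%. TGFBI read 14252 and 942, 15.1-fold lower, CDKN2B was 6.57-fold lower, SMAD7 4.24-fold lower and SKIL 2.37-fold lower, and CCN2 was 1.52-fold higher. HMGA2, a chromatin protein through which TGF-β can act on SNAI and TWIST genes, was within 2-fold at 696 and 492. The cell type markers differed between the same arrays, and their part in these values was not tested.

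MEOX genes act in the somite, so other somite genes were set beside them. Of 16 with their own probe set, 8 were detected, 4 of them 2-fold higher in SB-OG and 1 lower. With the mean of all probe sets of a gene, 5 were detected, 1 of them higher and 1 lower. PAX7, a factor of dermomyotome and muscle progenitors, read 28.0 and 592.5, at least 18.6-fold higher, with its other probe set at 0.27. EYA1, a transcriptional cofactor in muscle and ear development, read 24.9 and 212.7, at least 6.68-fold higher, and PAX3 read 16.4 and 69.5, at least 2.18-fold higher. NKX3-2, a sclerotome factor, read 65.2 and 20.3, at least 2.42-fold lower. The calls for PAX3 and NKX3-2 were lost with the background at the 99th percentile. TCF15, PAX1, PAX9 and MYF5 were among those not above background. SIX4, 2.10-fold higher, was above background on both arrays. PAX3, PAX7 and EYA1, and MESP2 at a log2 difference of 0.25, were above background on SB-OG only. So were the MEOX genes and 1232 of all 12582 detected genes. All 8 skeletal muscle markers were higher on that array too, and their part in the values of the MEOX genes and ZEB2 was not tested.

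The homeobox and T-box genes of limb and face mesenchyme, the setting in which PRRX genes are known, gave 5 above background of 10. TBX15 read 33.5 and 266.8, 7.97-fold higher in SB-OG, and ALX1, a relative of PRRX genes in face mesenchyme, read 50.2 and 145.4, 2.897-fold higher. MSX1 was lower, at 382.8 and 151.2, 2.53-fold, with another probe set at -0.28. ALX4, DLX5, DLX6, LMX1B and TBX5 were not above background on either array.

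**Figure D3:**
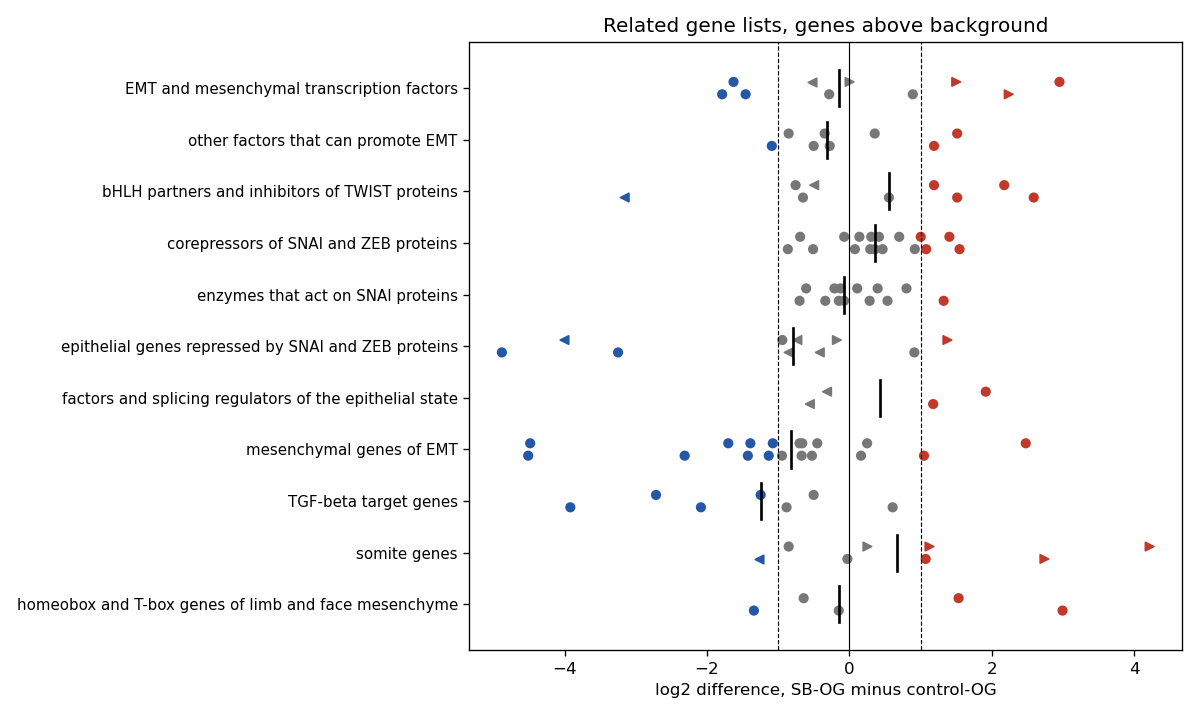
Log2 difference, SB-OG minus control-OG, of each gene above background in the 10 factor genes (top row) and in 10 related lists, with the median of each list as a black bar. Circles are genes above background on both arrays, triangles pointing right genes above it on SB-OG only and pointing left on control-OG only. Red and blue mark at least 2-fold higher and lower, and the factor genes spread to both sides. By brightest probe sets, 4 of 17 corepressor genes lie beyond 2-fold on the upper side and 0 on the lower, against 12.4% and 13.0% of all genes. Another LOXL2 probe set, not drawn, is at -1.25.

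The calls of the 10 genes were the same genes after quantile normalization, centring and lowess correction, and some changed with the probe sets used, the background level and scaling on control RNAs. Scaled on 18 hybridisation control probe sets, RNAs added in fixed amounts at hybridisation, SB-OG values moved up by 0.48 on the log2 scale. PRRX1 then passed 2-fold at 1.37, TWIST2 fell short at -0.98, ZEB1 turned from -0.28 to 0.19, and the median of the 10 genes turned from -0.14 to 0.34. SNAI2 at -1.15 and TWIST1 at -1.31 kept a 2-fold difference, ZEB2 was at 3.43 and SNAI1 at -0.056. With this scaling, 4 of the 18 mesenchymal genes and 3 of the 8 fibroblast or stromal markers were 2-fold lower, and the medians of the other factors that can promote EMT, of the enzymes that act on SNAI proteins and of the limb and face genes turned positive, at 0.16, 0.40 and 0.33. By their brightest probe sets, MSX1, SKIL, SOX9 and NKX3-2 then came within 2-fold, and CCN2 passed it upward. Of the 13 enzymes that act on SNAI proteins, 3 were then 2-fold higher. Of all calls, 48.9% were higher in SB-OG as deposited and 77.1% with this scaling.

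**Figure D4:**
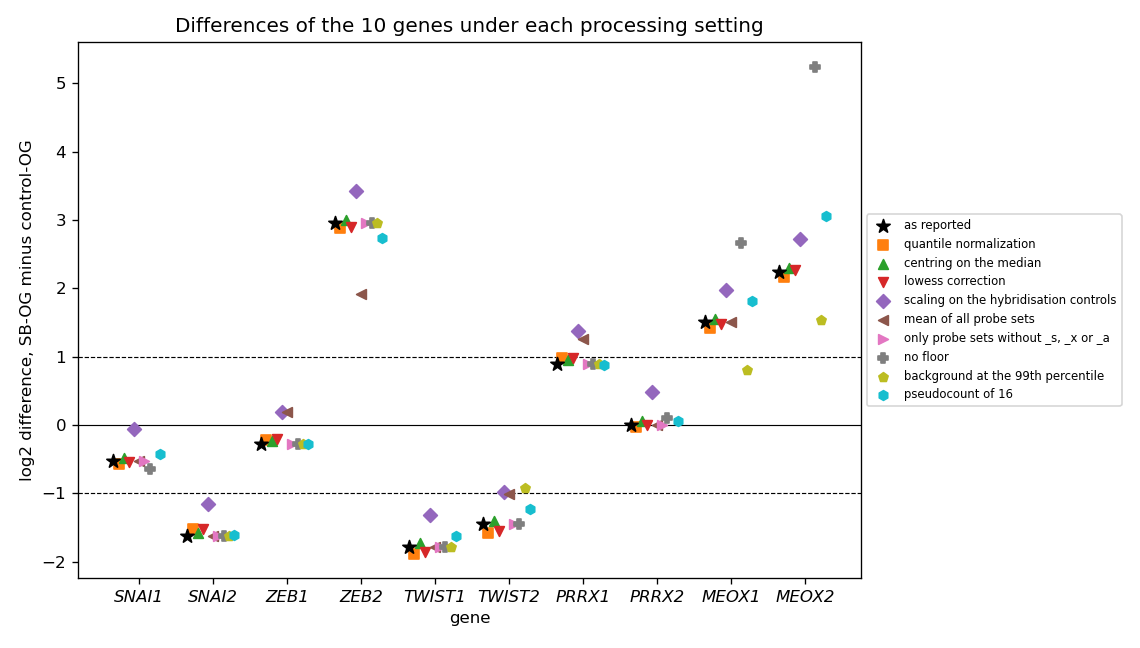
Log2 difference, SB-OG minus control-OG, of each of the 10 genes as reported (black stars) and under 9 other processing settings, with dashed lines at 2-fold. SNAI2 and TWIST1 stay below the lower line and ZEB2 above the upper line under each setting drawn, whereas MEOX1 ranges from 0.80 to 2.65 and TWIST2 from -1.58 to -0.92.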

How the data were processed

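Each of the 2 conditions had 1 array of biotin-labelled RNA, mixed from 3 samples, per the labels, and groups follow the sample titles. The table deposited by the authors gives an intensity for every probe set on a linear scale; the summarising software is not given in the sources. Trimmed means (2% cut from each end) were equal, so differences in RNA content between cells cannot be seen.

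Probe sets with 1 gene in the platform annotation of 2016, 41091 of them, were named with updated symbols; 19734 of 19775 genes were found in GRCh38.p14 through their gene ID. The probe set of highest mean log2 intensity stood for a gene. Values under background, the 95th percentile over 219 probe sets (177 genes) of olfactory and taste receptor, keratin-associated, defensin and cornified envelope families, were raised to it before differences, so folds for genes above it on 1 array are lower bounds, written "at least". Genes were called at 2-fold, with no test. All 10 genes, up to 4 members per other list, those furthest apart beyond 2-fold, and CDH1, CDH2, VIM and FN1 were to be named; others in the text were chosen after their values were seen. Members, lists and this rule were chosen with earlier results of these data known; promoter motifs were chosen after seeing the values. The number of arrays limits the precision. The calling step was tested on simulated data. Alternatives were quantile normalization, centring, lowess (span 0.4), scaling on the hybridisation controls, mean or unsuffixed probe sets, no floor, a 99th percentile background, a pseudocount of 16 and 3-fold. Python 3.11.15, numpy 2.4.6, pandas 2.3.3, statsmodels 0.14.6 and matplotlib 3.10.9 were used.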

Additional observations from a re-analysis of the deposited data

How the results depend on the processing

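Over the alternatives run, ZEB2 kept a difference of at least 2-fold upward (1.91 to 3.43 on the log2 scale), and SNAI2 (-1.63 to -1.15) and TWIST1 (-1.88 to -1.31) downward; at 3-fold, ZEB2, MEOX2, SNAI2 and TWIST1 passed. With only probe sets free of _s, _x and _a endings, 1 gene, ZEB2, was higher in place of 3, since MEOX1 and MEOX2 gave no value. Scaling on the hybridisation controls moved the median of the 10 genes to 0.34 and gave 4 higher and 2 lower. The mean of all probe sets put ZEB2 at 1.91 and ZEB1 at 0.19, and PRRX1 passed 2-fold while MEOX2 gave no value. With the background at the 99th percentile, 51.8 on control-OG and 76.2 on SB-OG, 8 of the 10 genes were above it, without SNAI1 and PRRX2, and MEOX1 (0.80) and TWIST2 (-0.92) no longer reached 2-fold. Dim signal limits SNAI1, PRRX2, MEOX1 and MEOX2. No paired analysis was possible because each condition has 1 array.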
